A study of Mus musculus with 20 samples.

Results

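None of the hearts compared here had been exposed to the agent of the study. They came from fetal mice of dams that had been gavaged with corn oil, the vehicle, at day 14.5 of gestation, and collection followed at day 17.5. The labels number these controls 1 to 8, and the 4 arrays numbered 1 to 4 were set against the 4 arrays numbered 5 to 8, so that 8 of the 20 arrays of the series enter the comparison. Arrays were assigned to the sets by title alone. The other 12 arrays hold hearts from dams given the dioxin TCDD (2,3,7,8-tetrachlorodibenzo-p-dioxin), with 4 arrays at each of 1.5, 3 and 6 µg/kg, and the series is a dose response. Their labels also give dosing at day 14.5 and collection at day 17.5, though no dosing day is given for 1 array at 1.5 µg/kg. Every array holds total RNA of whole fetal hearts on the Affymetrix MG-U74Av2 chip, and the values are MAS5 signals, a linear brightness per probe set. The series text gives 4 replicates for every dose, the vehicle included, while the labels name 8 vehicle arrays. They do not say why the controls run to 8, which of them were run beside which dose, how many hearts went into each array, or whether litters were kept apart. Every p therefore measures only the spread between these arrays, and their number limits its precision. No strain is given.

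A fetal heart this close to birth is a mixture of dividing cardiomyocytes, endocardium and vessel endothelium, fibroblasts, smooth muscle, epicardium, valve cells and nerves. It is filled with red cells, which in the mouse fetus are made in the liver, and it lies against the lungs and the thymus. Dissection can carry scraps of those neighbours along, and blood left in the chambers adds red cell RNA. Differences between sets of untreated hearts can therefore concern the heart's own processes or genes of other tissues, and both were examined. In bulk RNA, fewer cells of a type and less RNA per cell cannot be told apart.

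A limited number of genes passed the adjusted threshold between the sets of untreated hearts. The clearest of them was Pdia3, an enzyme of protein folding, which was 3.55-fold higher in controls 5 to 8. Of 8097 probe sets kept by an intensity filter, 127 passed at a limma adjusted p under 0.05, which is 1.57%. Of these, 68 (0.84%) were higher and 59 (0.729%) lower in controls 1 to 4. Throughout, a log2 difference is controls 1 to 4 minus controls 5 to 8 of log2(signal + 32), so a positive value means a higher signal in controls 1 to 4. Folds are on the same scale and understate the change of dim genes. The median difference was 0.57 among the probe sets called higher, −0.79 among those called lower and 0.0017 over all 8097. In 6 probe sets controls 1 to 4 were more than 2-fold higher and in 16 more than 2-fold lower. The 4 and 4 arrays did not overlap in 119 of the 127 called probe sets, where non-overlap held for 650 of all 8097 (8.03%). An unadjusted p under 0.05 was reached by 1205 (14.9%), where no difference between the sets would give a share of 0.05 on average. Probe sets measured on the same arrays can vary together, so this share cannot tell whether probe sets beyond the 127 differ.

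The count depended on single arrays. It was 36 without control 1, 31 without control 2, 25 without control 5, 35 without control 7 and 59 without control 8, and it was 178, 139 and 153 without controls 3, 4 and 6. A fit on the 8 control arrays alone called 23, of which 21 were among the 127. Of the 127, 109 carry 1 gene symbol, 8 carry several and 10 carry none. By a rule on size, on non-overlap and on the gene lists, 51 called probe sets were taken for description. Those taken by size were required to have no overlap between the 4 and 4 arrays, so non-overlap is no support for them. Of the 51, 11 passed whichever of the 20 arrays was left out. They are Pdia3, Dnajc7, Pptc7, Cdh13, Bmi1, Gclm and Sprr1b, lower in controls 1 to 4, and Rufy3, Gna11, Flcn and Nup107, higher in controls 1 to 4. These 11 are described first. Over all 127 called probe sets, 21 passed in every such fit. Of the 10 others, 6 do not carry 1 symbol and 4 are Klf13, Chd8, Mpv17 and Pdgfa, which lie outside the rule and were named after their values were seen.

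**Figure D1:**
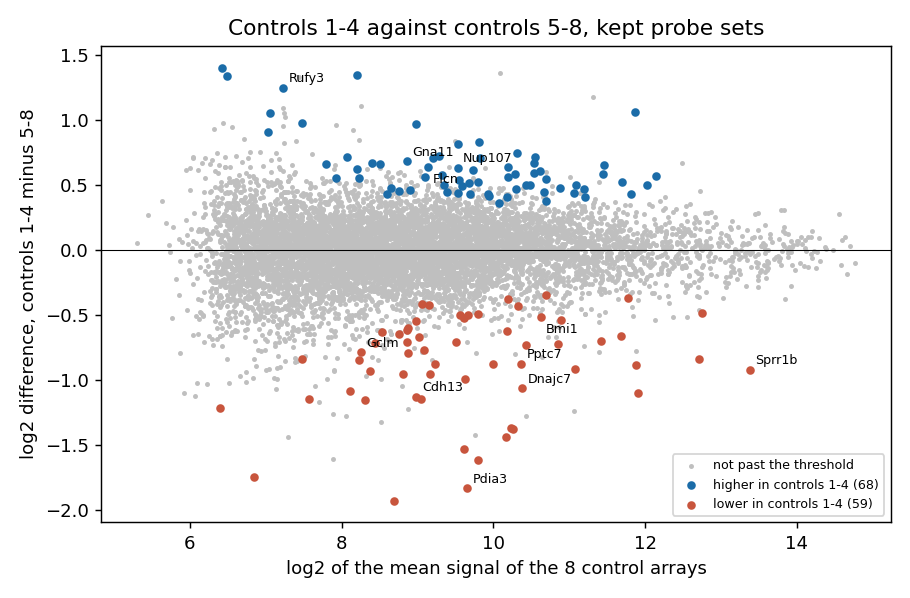
Each point is 1 of 8097 probe sets, with the log2 of its mean signal in the 8 control arrays on the horizontal axis and the log2 difference of controls 1 to 4 minus controls 5 to 8 on the vertical axis. The 68 blue and 59 red points passed at a limma adjusted p under 0.05, and names mark the 11 of the 51 described probe sets that passed whichever array was left out; Pdia3 lies lowest of these at −1.83.

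Proteins that enter the secretory pathway fold in the endoplasmic reticulum with the help of chaperones such as the Hsp70 protein BiP (gene Hspa5), the Hsp90 protein Grp94 (gene Hsp90b1) and protein disulfide isomerases. When unfolded proteins build up, a stress response raises many of these genes together through a promoter element that is read by the factors NF-Y and ATF6. Pdia3 encodes ERp57, the isomerase that works with calnexin and calreticulin on glycoproteins and helps load MHC class I molecules. The 250 bases before its annotated start (RefSeq, build GRCm38.p6) are shown with those of Hspa5, Hsp90b1 and Pdia6, a further isomerase, because those 3 genes belong to the same folding machinery and did not pass between the sets, while Pdia3 did. Hspa5 and Hsp90b1 were picked after their values were seen. Capitals mark each match to the element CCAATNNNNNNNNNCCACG on either strand.
Pdia3 (GRCm38.p6 chr2:121413652-121413901, plus strand): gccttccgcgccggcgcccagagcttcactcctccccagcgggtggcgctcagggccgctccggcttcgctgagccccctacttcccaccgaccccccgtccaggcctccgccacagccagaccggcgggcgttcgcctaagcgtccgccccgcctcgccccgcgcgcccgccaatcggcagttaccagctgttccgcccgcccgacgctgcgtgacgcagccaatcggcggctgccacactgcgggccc
Hspa5 (GRCm38.p6 chr2:34771840-34772089, plus strand): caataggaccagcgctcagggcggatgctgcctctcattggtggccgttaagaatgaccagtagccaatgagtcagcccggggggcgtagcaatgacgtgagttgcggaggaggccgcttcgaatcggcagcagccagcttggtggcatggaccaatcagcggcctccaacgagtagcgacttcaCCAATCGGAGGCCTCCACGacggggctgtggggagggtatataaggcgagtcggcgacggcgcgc
Hsp90b1 (GRCm38.p6 chr10:86705445-86705694, minus strand): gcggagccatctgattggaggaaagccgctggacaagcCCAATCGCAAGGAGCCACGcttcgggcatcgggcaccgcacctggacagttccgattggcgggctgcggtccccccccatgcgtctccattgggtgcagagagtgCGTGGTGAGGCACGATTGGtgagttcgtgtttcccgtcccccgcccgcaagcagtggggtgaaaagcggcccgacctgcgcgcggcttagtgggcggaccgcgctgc
Pdia6 (GRCm38.p6 chr12:17266339-17266588, plus strand): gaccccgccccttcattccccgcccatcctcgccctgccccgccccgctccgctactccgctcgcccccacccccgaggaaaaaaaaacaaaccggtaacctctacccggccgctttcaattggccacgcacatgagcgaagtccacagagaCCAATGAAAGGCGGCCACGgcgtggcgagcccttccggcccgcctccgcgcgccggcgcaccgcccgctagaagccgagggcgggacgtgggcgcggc
The element was found 1 time in the Hspa5 and Pdia6 windows and 2 times in the Hsp90b1 window, of which 1 lies on the opposite strand. No full match was found in the Pdia3 window, but it holds 1 run with every letter of the element except the last. Of 32851 promoter windows of this length, 37 (0.113%) hold the full element and 105 (0.32%) hold it without regard to the last letter. A match describes the letters of the window only.

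Pdia3 gave signals of 299, 349, 346 and 348 in controls 1 to 4 and 1229, 1571, 1166 and 1154 in controls 5 to 8. The sets lay far apart, and the highest array of the lower set was below every array of the other by a wide margin. Its log2 difference was −1.83 ± 0.18 (SE; limma adjusted p = 1.55e-05). It passed under all 36 alternatives, with differences from −1.92 to −1.66, and it was the 1 probe set that passed a test for changes above 1.5-fold. Hspa5 gave 4928, 4037, 4061 and 4177 in controls 1 to 4 and 4291, 4306, 4006 and 4066 in controls 5 to 8, and the sets overlapped (0.041 ± 0.11; adjusted p = 0.912; below 0 in 4 alternatives, 1 of them without control 1). Hsp90b1 gave 4706, 4342, 3129 and 2992 against 3296, 3411, 3223 and 3377, with controls 1 and 2 above all other controls (0.16 ± 0.12; adjusted p = 0.58; −0.12 without controls 1 and 2). Pdia6 was at 0.29 ± 0.14 and P4hb, the founding disulfide isomerase, at −0.60 ± 0.24, and neither passed (adjusted p = 0.356 and 0.236). Of 18 measured genes of endoplasmic reticulum stress, 9 were higher and 9 lower, and Pdia3 was the 1 that passed.

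Dnajc7 encodes a J-domain co-chaperone that links Hsp70 and Hsp90. It gave signals of 759, 689, 989 and 993 in controls 1 to 4 and 1669.7, 2041, 1787 and 1715 in controls 5 to 8. All 4 of the former were below all 4 of the latter (−1.06 ± 0.12; adjusted p = 9.23e-05). Pptc7, a phosphatase of the mitochondrial matrix, gave 856, 882, 884 and 1057 against 1593, 1824, 1912 and 1523, again without overlap (−0.87 ± 0.12; adjusted p = 0.000379). Both passed in 35 of 36 alternatives and missed when a change above 1.5-fold was required.

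Cdh13 encodes T-cadherin, a lipid-anchored cadherin of vessels and muscle that binds adiponectin. Its signals were 268, 297, 391 and 268 in controls 1 to 4 and 668, 932, 620.1 and 613 in controls 5 to 8, so the sets did not overlap and differed 2.18-fold (−1.12 ± 0.20; adjusted p = 0.00645). Bmi1, a component of Polycomb repressive complex 1 that holds developmental genes silent, gave 1382, 1307, 1218 and 1266 against 1905, 1752, 1677 and 2116. That is a smaller step of 1.43-fold in a bright gene with little spread (−0.51 ± 0.09; adjusted p = 0.00867). Gclm encodes the modifier subunit of glutamate-cysteine ligase, which starts glutathione synthesis. It gave 206, 187, 212 and 255 in controls 1 to 4 and 335, 354, 374 and 522 in controls 5 to 8, without overlap and with control 8 as the highest array (−0.78 ± 0.14; adjusted p = 0.00684).

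One probe set with the suffix _r carries the symbol Sprr1b, a cornified envelope protein of squamous epithelia. Its signals were 6989, 6866, 8086 and 6744 in controls 1 to 4 and 13719, 9615, 12162 and 21009 in controls 5 to 8, without overlap (−0.92 ± 0.17; adjusted p = 0.00939). A further probe set with this symbol gave 2.3 to 10.4 in controls 1 to 4 and 2.5 to 6.3 in controls 5 to 8, which is background. The 2 probe sets thus differ on whether the gene is detected at all, and that suffix marks probe sets for which fewer of the usual probe selection rules held.

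Among the 4 higher in controls 1 to 4, Rufy3, a RUN and FYVE domain protein known from growing axons, gave 222, 285, 183 and 209 against 60.9, 74.5, 78.9 and 86.6. It was 2.38-fold higher on the log2(signal + 32) scale and did not overlap (1.25 ± 0.21; adjusted p = 0.00561). Its probe set, like that of Sprr1b, has the suffix _r. Gna11 encodes a G protein alpha subunit of the Gq family, which couples hormone receptors to phospholipase C. Its signals were 602, 528, 548 and 639.7 in controls 1 to 4 and 335, 320.3, 339 and 401 in controls 5 to 8 (0.68 ± 0.12; adjusted p = 0.00731). All arrays of the first set lay above all of the second, but a further Gna11 probe set gave 149.7 to 444 and 149 to 345 and did not pass (0.15; adjusted p = 0.899). Flcn, folliculin, a lysosomal regulator of the growth kinase mTORC1, gave 736, 639, 665 and 722 against 403, 381, 520.1 and 431 (0.64 ± 0.12; adjusted p = 0.00866). Nup107, a scaffold subunit of the nuclear pore, gave 1013, 956, 841 and 796 against 545, 735, 432 and 594 (0.63 ± 0.12; adjusted p = 0.0104). Neither gene showed overlap between the sets. On the 8 controls alone Bmi1, Flcn, Gclm, Nup107 and Sprr1b did not pass, and without controls 1 and 2 together Cdh13, Flcn, Gclm, Nup107, Rufy3 and Sprr1b did not. Cdh13 and Flcn also missed without the 4 arrays of highest β-actin 3′ to middle ratio.

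Klf13, a Krüppel-like zinc finger factor, gave 399, 358, 391 and 428 in controls 1 to 4 and 653, 781, 689 and 650.4 in controls 5 to 8 (−0.77 ± 0.10; adjusted p = 0.000297). A further Klf13 probe set of similar brightness was at −0.32 and did not pass (limma adjusted p = 0.278). Pdgfa, a platelet-derived growth factor chain, gave 1045, 1046, 949 and 1074 against 1896, 1588, 1726 and 1692 (−0.73 ± 0.13; adjusted p = 0.0074). Chd8, a chromodomain remodeller, was at −0.67 and Mpv17, a protein of the inner mitochondrial membrane, at −0.71 (adjusted p = 0.00867 and 0.00645). In all 4 every array of controls 1 to 4 lay below every array of controls 5 to 8.

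**Figure D2:**
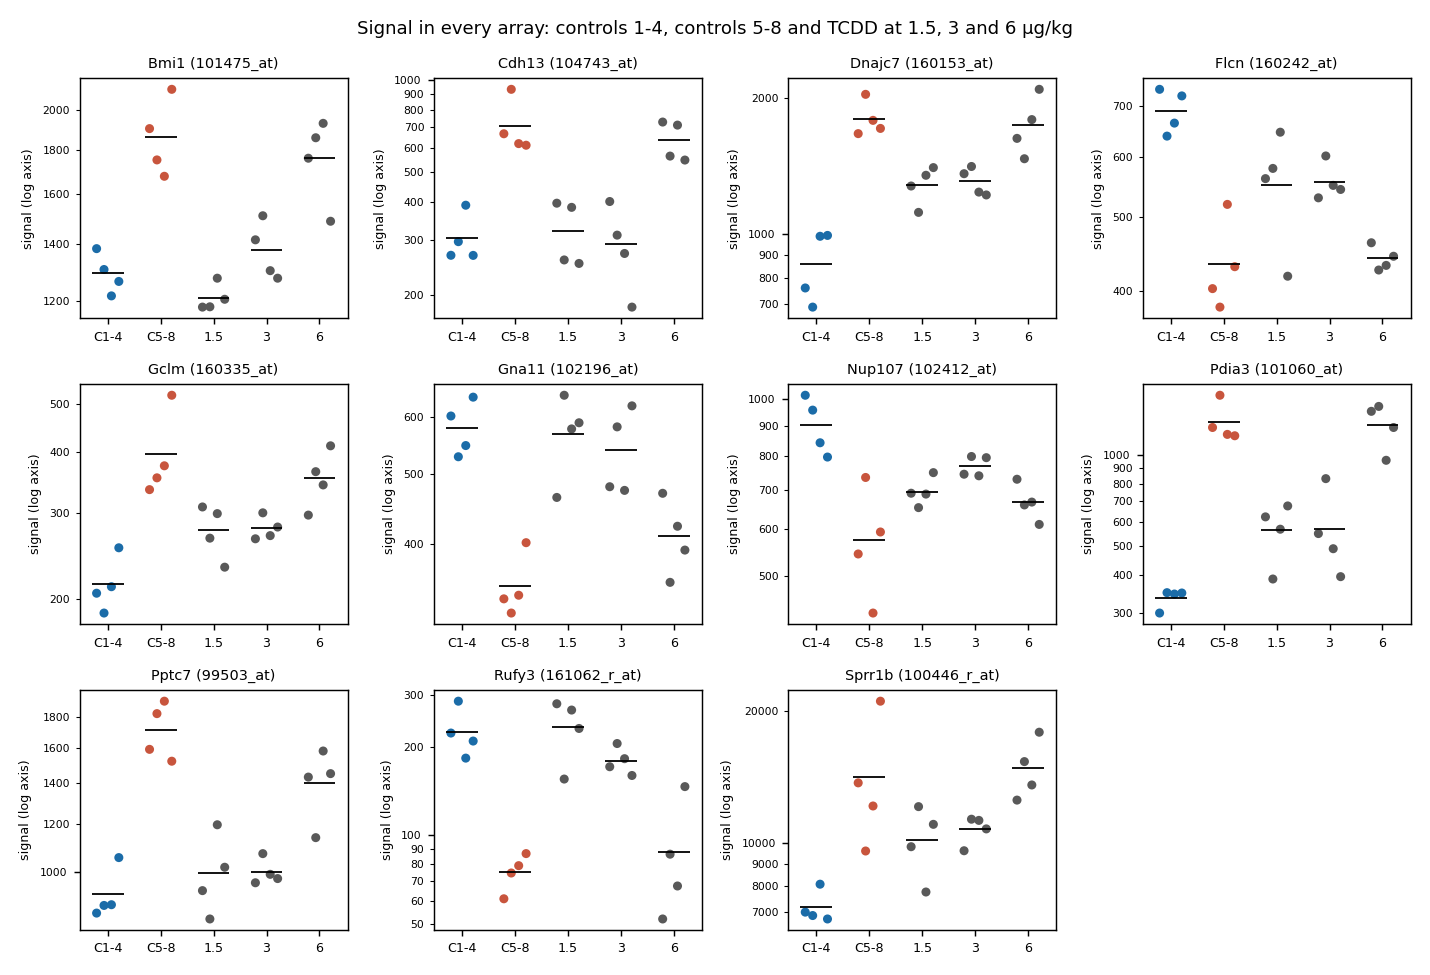
Signal of the 11 probe sets in every array on a log axis, with 1 point per array and a bar at the mean of each group of 4: controls 1 to 4 (C1-4), controls 5 to 8 (C5-8) and TCDD at 1.5, 3 and 6 µg/kg. The control sets do not overlap in any panel, which was a condition of choice for probe sets taken by size. The 6 µg/kg mean lies nearer to controls 5 to 8 in all 11.

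The exposed hearts did not lie evenly between the control sets at the genes that separated them. Of the 127 called probe sets, the mean at 1.5 µg/kg lay nearer to controls 1 to 4 in 92, the mean at 3 µg/kg in 87 and the mean at 6 µg/kg in 8. The same held array by array. The 4 arrays at 1.5 µg/kg were nearer to controls 1 to 4 in 80 to 96 of the 127, those at 3 µg/kg in 70 to 92, and those at 6 µg/kg in 5 to 29. Such counts were not made over all 8097 probe sets, so no background share stands beside them. Pdia3 shows the pattern, with signals of 388 to 676 at 1.5 µg/kg, 395 to 832 at 3 µg/kg and 957 to 1443 at 6 µg/kg. The 6 µg/kg arrays overlapped controls 5 to 8, and the lower doses lay between the sets. Ank3 encodes ankyrin G, a membrane scaffold of ion channels and cadherins. It gave 619 to 903 in controls 1 to 4 and 347 to 604 in controls 5 to 8. At 1.5 µg/kg it gave 903 to 1056, at 3 µg/kg 826 to 1198 and at 6 µg/kg 325 to 457. A brighter Ank3 probe set went the other way between the control sets, at −0.34, and did not pass (limma adjusted p = 0.301).

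The exposed arrays were then compared among themselves, as the mean of 1.5 and 3 µg/kg minus 6 µg/kg, a contrast chosen after the values were seen. It holds no control array, although the estimate of spread comes from the same fit. Of the 68 probe sets called higher in controls 1 to 4, 65 were also higher at the lower doses than at 6 µg/kg, and 31 of them passed, where 1.93% of all probe sets passed in that direction. Of the 59 called lower, 57 were lower at the lower doses and 16 passed, where 0.988% of all did. No called probe set passed in the opposite direction. Over all 8097 probe sets the sign was shared in 65.1%, and 236 (2.91%) passed between the doses. The median dose difference was 0.35 for the 68, −0.38 for the 59 and 0.0019 over all. All 11 of the genes described above shared the sign, and 7 passed, among them Pdia3 (−1.13; adjusted p = 0.000578), Cdh13 (−1.01; 0.00255) and Rufy3 (1.02; 0.00364). Ank3 had the smallest adjusted p of the named genes (1.27; 2.53e-05), and Slc6a6, the taurine transporter (0.92; 0.00135), also passed. Mast2, Tubgcp4, Snw1 and Crip2 were called between the control sets but stood at 0.0082, −0.025, −0.00044 and −0.021 between the doses. Dose and any grouping of the arrays that the control numbers may reflect cannot be told apart in this contrast.

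**Figure D3:**
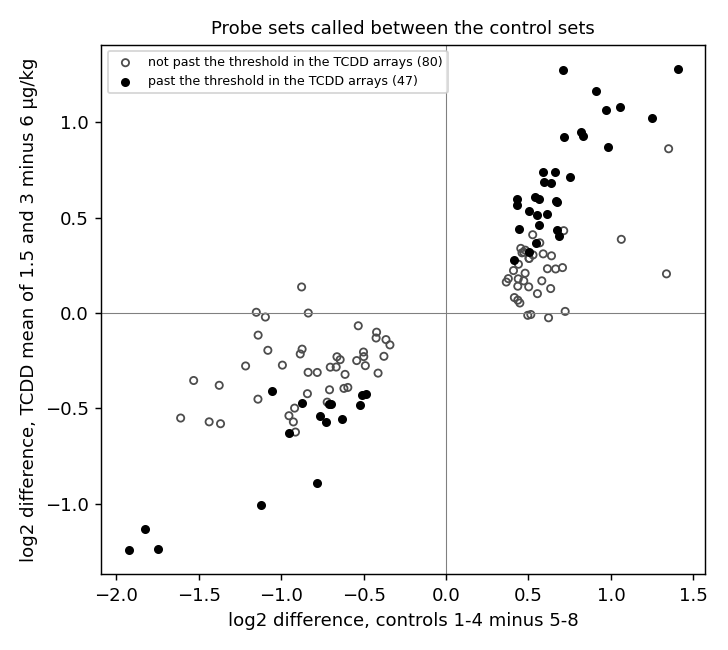
Each point is 1 of the 127 probe sets called between the control sets, with its log2 difference of controls 1 to 4 minus controls 5 to 8 on the horizontal axis and the mean of TCDD at 1.5 and 3 µg/kg minus 6 µg/kg on the vertical axis. Filled points are the 47 that passed between the doses; 65 of 68 lie above 0 on the right and 57 of 59 below 0 on the left.

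RNA processing genes were called in both directions. Over 6099 genes, each taken at its brightest probe set, 51 passed higher and 42 lower (1.52%), and 506 (8.3%) did not overlap between the sets. Of 31 measured genes of splicing and RNA processing, 20 were higher and 11 lower (median 0.048; 0.018 without control 7 and 0.086 without control 6), 2 passed higher and 2 lower, and 6 did not overlap. Prpf8, the core protein at the catalytic centre of the spliceosome, ranged over 1352 to 1859 in controls 1 to 4 and 1072 to 1256 in controls 5 to 8 (0.50 ± 0.11; adjusted p = 0.0209). Clk1, a kinase of SR splicing factors, was also higher (0.44; adjusted p = 0.0249). Sf3a2, a subunit of the U2 particle, was lower, at 1596 to 2649 against 3278 to 3524 (−0.70 ± 0.13; adjusted p = 0.0109), and a further Sf3a2 probe set was at −0.82 and missed (adjusted p = 0.0586). Hnrnpl, which represses and activates exons, gave 181, 178, 654 and 739 in controls 1 to 4 and 875, 1477, 973 and 1168 in controls 5 to 8. The sets did not overlap, but controls 1 and 2 were far lower than controls 3 and 4 (−1.53 ± 0.32; adjusted p = 0.0209). Outside that list, Snrpd3, a core Sm protein of the spliceosomal particles, was at −1.14 and Snw1, a splicing factor and transcriptional coregulator, at −0.84 (adjusted p = 0.0249 and 0.0335). Leaving out 1 array ended these calls: for Sf3a2 without controls 2 or 5 (0.0505 to 0.0561), for Prpf8 without controls 1, 2, 5 or 7 (0.0717 to 0.0927), and for Hnrnpl without controls 1, 2, 7 or 8 (0.0507 to 0.0927). For Clk1 and Snw1 this was so without controls 1, 2, 5, 7 or 8 (0.0685 to 0.105 and 0.0904 to 0.125), and for Snrpd3 without controls 1, 2, 5, 6 or 7 (0.0546 to 0.117).

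Skp1, the adaptor of SCF ubiquitin ligases, had the same split within controls 1 to 4 as Hnrnpl. It gave 262, 239, 1283 and 1127 there and 1595, 1603, 1515 and 1555 in controls 5 to 8. Controls 1 and 2 were low and controls 3 and 4 came close to the other set (−1.44 ± 0.36; adjusted p = 0.0464). The call ended without controls 1, 2, 5, 6, 7 or 8 or without any of 9 TCDD arrays (0.0528 to 0.193). The control probe sets for β-actin had a log2 ratio of the 3′ end to the middle of 1.19 and 1.34 in controls 1 and 2. It was 0.459 and 0.468 in controls 3 and 4, and 0.417, 0.896, 0.369 and 0.61 in controls 5 to 8. The β-actin log2 ratio of the 3′ to the 5′ end did not set controls 1 and 2 apart. It was 0.253, 0.401, 0.292 and 0.329 in controls 1 to 4, and 0.381, 0.31, 0.593 and 0.699 in controls 5 to 8. The Gapdh log2 ratio of the 3′ end to the middle was −0.283 to −0.124 over the 8 controls. How complete the labelled RNA was cannot be read from the 3′ to middle ratio of β-actin alone and was not tested. The two-sided exact permutation p for that ratio was 0.286 (smallest possible 0.0286). With that ratio as a covariate 53 probe sets were called, 44 of them among the 127. Without controls 1 and 2, an alternative chosen after seeing the data, 27 were called and 19 were shared. With the covariate 27 of the 51 named calls ended, among them Hnrnpl (−1.25; adjusted p = 0.0653) and Skp1 (−0.98; adjusted p = 0.12), while 24 passed, including all 11 described first.

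Single genes of RNA turnover and translation were called. Xrn1, the 5′ to 3′ exonuclease that clears decapped mRNA, gave 114, 126, 148 and 157 in controls 1 to 4 and 23.2, 5, 40.1 and 76.2 in controls 5 to 8. The sets did not overlap, but all values were dim (1.40 ± 0.36; adjusted p = 0.0486). Eif5b, the factor that joins the ribosomal subunits, was dim as well, at 166 to 187 against 57.4 to 126 (0.91; adjusted p = 0.039). A brighter Eif5b probe set was at −0.18. Rpl22, a large-subunit ribosomal protein, was at 0.51 (adjusted p = 0.0259), with a dimmer probe set at −0.52, and it was the 1 of 20 listed ribosomal protein genes that passed (10 higher, 10 lower, median 0.0027). Pabpc1, the cytoplasmic poly(A)-binding protein, was lower, at 5157 to 6210.0 against 6366 to 9193 (−0.48; adjusted p = 0.0153), the 1 that passed of 19 listed translation factors, which do not include Eif5b (8 higher, 11 lower, median −0.031). Pabpc1 lost its call without controls 5 or 8 (0.0516 to 0.0611) and Rpl22 without controls 1, 2, 4, 5, 7 or 8 (0.0506 to 0.0949). Xrn1 lost it without controls 1, 2, 3, 4, 5, 6 or 7 or without any of 9 TCDD arrays (0.0537 to 0.138), and Eif5b without controls 1, 2, 3, 4, 5, 6 or 8 or without 1 TCDD array (0.0506 to 0.123).

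Single genes of other roles were also higher in controls 1 to 4. Mef2a, a MADS-box factor of muscle gene expression, gave 3637, 3694, 2932 and 3501 against 1982, 2008, 2312 and 2364, a clear gap in a bright gene (0.66 ± 0.14; adjusted p = 0.0209). It was the 1 of 12 listed cardiac transcription factors that passed (5 higher, 7 lower, median −0.033). Tnxb, tenascin X, a matrix glycoprotein that organises collagen, gave 761, 825, 945 and 1263 against 355, 674, 462 and 632 (0.82 ± 0.19; adjusted p = 0.0335). Its second probe set was at 0.58 with no overlap and did not pass (adjusted p = 0.147). Fmod, fibromodulin, a collagen-binding proteoglycan, was at 0.71 (adjusted p = 0.039). At their brightest probe sets these were the 2 of 44 listed matrix genes that passed (26 higher, 18 lower, median 0.07; 0.045 without control 7; 7 without overlap). Over all 6099 genes 1.52% passed and 8.3% did not overlap. The collagen chains Col5a1 and Col18a1 passed at a dimmer probe set (0.56 and 0.43; adjusted p = 0.0209 and 0.0446) but stood at 0.012 and 0.087 at their brightest. Decorin, Dcn, was at −0.46 (adjusted p = 0.0899; 0.0375 without control 4). Slc6a6 was at 0.72, Ank3 at 0.71, Akap1, which anchors protein kinase A at mitochondria, at 0.64, and Arhgap1, a GTPase-activating protein for Cdc42, at 0.67 (adjusted p = 0.0273, 0.0251, 0.0209 and 0.0123). Further probe sets of Slc6a6, Ank3 and Akap1 lay between −0.34 and 0.13.

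These calls rested on few arrays. Mef2a lost its call without controls 1, 2 or 5 (0.0703 to 0.0823), and Arhgap1 without the same 3 controls (0.054 to 0.0585). Tnxb lost it without controls 1, 2, 4, 5 or 7 (0.0521 to 0.132), Fmod without controls 2, 3, 4, 5, 6, 7 or 8 or without 1 TCDD array (0.0505 to 0.128), and Slc6a6 without controls 1, 2, 3, 5, 6 or 7 (0.0524 to 0.0872). For Ank3 this was so without controls 4, 5, 7 or 8 (0.0598 to 0.0949) and for Akap1 without controls 1, 2, 5, 7 or 8 (0.054 to 0.0854).

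Further called genes act in the nucleus or in cell division, in both directions. Mcm3, a subunit of the replicative helicase, gave 1042 to 1353 in controls 1 to 4 and 907 to 966 in controls 5 to 8 (0.37 ± 0.09; adjusted p = 0.047), a call that was lost in 17 of 20 fits that each left out 1 array (0.0518 to 0.162), among them those without controls 1, 2, 3, 5, 6, 7 or 8. Fancc, a Fanconi anaemia protein of DNA crosslink repair, was at 1.35, Chtf8, a clamp-loader subunit, at 0.71, and Tubgcp4, of the microtubule-nucleating γ-tubulin complex, at 0.62 (adjusted p = 0.0471, 0.0198 and 0.0299). Lower in controls 1 to 4 were Lmnb1, lamin B1 of the nuclear envelope (−0.95), Prcc, a protein known from fusions in kidney cancer (−1.75), and Smarcd2, a subunit of the BAF remodelling complex (−0.95; adjusted p = 0.0249, 0.0206 and 0.0206). The Prcc signals were dim, at 12.9 to 71.3 against 155 to 290.1, and a brighter Prcc probe set was at −0.46. For Smarcd2 3 further probe sets were at −0.02, 0.32 and −0.20. Lmnb1 and Prcc lost their calls without controls 1, 2 or 5 (0.0642 to 0.105 and 0.0527 to 0.0823), Smarcd2 without controls 2 or 5 (0.0685 to 0.0801), Chtf8 without controls 1, 2, 5 or 7 (0.054 to 0.0823), Tubgcp4 without controls 1, 2, 5, 7 or 8 (0.079 to 0.137), and Fancc in 13 of the 20 fits, among them those without controls 1, 2, 3, 4, 5, 7 or 8 (0.0544 to 0.168).

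Lower in controls 1 to 4 were also B2m, the light chain of MHC class I, at 1207, 1154, 1689.8 and 1897 against 2377, 3835, 2501 and 2573 (−0.91 ± 0.21; adjusted p = 0.0334), and Gpx4, the glutathione peroxidase of lipid peroxides, at 905 to 1173 against 1257 to 1405 (−0.38; adjusted p = 0.0339). B2m was the 1 of 18 measured interferon and MHC class I genes that passed (9 higher, 9 lower, median −0.014). Gpx4 and Gclm were the 2 of 31 glutathione and antioxidant genes that passed (12 higher, 19 lower, median −0.058), where 1.52% of all 6099 genes passed. Crip2, a LIM domain protein of heart and vessels, was 2.14-fold higher in controls 5 to 8, at 2753, 2487, 2143 and 2287 against 5304, 3793, 6702 and 5337 (−1.10 ± 0.24; adjusted p = 0.027). B2m lost its call without controls 1, 2, 5, 6, 7 or 8 (0.0611 to 0.139). Gpx4 and Crip2 lost theirs without controls 1, 2, 5, 7 or 8 (0.0707 to 0.136 and 0.0591 to 0.109).

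The remaining named genes were Nrk (1.06), Glg1 (0.75), Mast2 (0.72) and Zfp692 (0.66), which were higher in controls 1 to 4, and Ica1 (−1.61), Pip4k2c (−1.37), Rsph1 (−0.99), Tbc1d24 (−0.93) and Phlda1 (−0.84), which were lower. Their limma adjusted p lay between 0.0157 and 0.0409. A brighter Nrk probe set was at −0.21 and a further Glg1 probe set at −0.0075. Further probe sets of Ica1 and Pip4k2c were at −0.22 and 0.21. None of these further probe sets passed. Each of these 9 calls was lost without at least 2 of the 8 controls. Without control 1, 33 of the 51 named calls were lost, and 36 were lost without control 2, 38 without control 5, 32 without control 7 and 23 without control 8, against 6, 9 and 11 without controls 3, 4 and 6.

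Few of the called genes were backed by a second feature. Of the 109 called genes, 35 had at least 1 other kept probe set, 47 in all, and none had 2 that passed. Of those 47, 26 had the same direction, 11 were at least 0.5 times as large, and 32 were under 0.2 in size or opposite. Probe sets with the suffix _r were 4.88% of all kept and 9.45% of the called ones, and those with _s were 3.12% and 7.09%. Among the named calls, Sprr1b, Rufy3, Ica1, Pip4k2c, Rsph1, Smarcd2 and Nr2f2 rest on probe sets with the suffix _r.

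Genes of neighbouring tissues and of blood did not pass between the control sets. The 18 tissue lists hold 143 measured genes, of which 1 passed higher, Vwf of endothelium, and 1 lower, Nr2f2 of atrial myocytes, together 1.4% beside 1.52% of all 6099 genes. The lists with the largest median differences were thymus and T cells (−0.59), liver (−0.50) and erythroid cells (−0.37), all lower in controls 1 to 4, beside a median of 0.0058 over all genes. These medians kept their sign in all 38 alternatives. They ranged from −0.96 to −0.011, from −0.94 to −0.37 and from −0.72 to −0.17 in that order, the last without control 8. With array weights Hbb-y, Slc4a1, Cd4 and Gja5 passed (adjusted p = 0.00562, 0.0416, 0.0323 and 0.0143). No test was made of a list, and the part of these tissues in the calls above was not tested. With the lung score as a covariate, 79 probe sets were called, 77 of them among the 127.

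The liver list was lower in 5 of its 6 measured genes. Alb, albumin, gave 368, 519, 141 and 118 in controls 1 to 4 and 762, 376, 476 and 984 in controls 5 to 8. Controls 3 and 4 were the lowest, but control 2 lay above controls 6 and 7, and the gene did not pass (−1.22 ± 0.45; adjusted p = 0.19). Apoa1, the protein of high-density lipoprotein, was dim, at 26.5, 16.7, 30.0 and 44.4 against 172, 31.9, 55 and 167, with controls 5 and 8 high (−1.02 ± 0.47; adjusted p = 0.309). Ahsg, fetuin-A, was 147 to 220.5 against 248 to 384 without overlap (−0.66 ± 0.25; adjusted p = 0.208). Afp, the fetal albumin, was dim in both sets (58.7 to 134 and 67.6 to 99.2). The summed signal of the 6 genes was 572 to 989 in controls 1 to 4 and 944 to 1816 in controls 5 to 8. A score per array was the average of the genes' centred log2 signals. It was −0.63 to −0.35 in controls 1 to 4 and −0.26 to 0.37 in controls 5 to 8, without overlap. Scores of the endothelium, calcium handling and translation factor lists did not overlap either, so this was not particular to liver. Alb passed without the 4 arrays of highest β-actin ratio (−2.21; adjusted p = 0.0154).

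Erythroid genes had 7 of 9 lower. Hbb-y, the embryonic β-like globin of primitive red cells, gave 83.8, 92.5, 104 and 109 in controls 1 to 4 and 366, 72.1, 235 and 605 in controls 5 to 8. Controls 1 to 4 were alike, control 6 lay below them all and controls 5, 7 and 8 lay above (−1.17 ± 0.35; adjusted p = 0.103). Alas2, which starts haem synthesis in red cell precursors, gave 2009.7, 2015, 1288 and 1357 against 2835, 1475, 2623 and 5092 (−0.73 ± 0.28; adjusted p = 0.215). Slc4a1, the anion exchanger band 3, gave 148, 192, 207 and 147 against 393, 141, 227 and 634 (−0.72 ± 0.27; adjusted p = 0.207). In all 3, control 8 was the highest array and control 6 was within or below the range of controls 1 to 4. Without control 6 all 3 passed, with Hbb-y at −1.66 (adjusted p = 0.00205), Alas2 at −1.03 (0.0455) and Slc4a1 at −1.04 (0.0288). The adult globin Hba-a1 was near the top of the signal range in every array, 22777 to 27056 against 25415 to 28634 (−0.18; adjusted p = 0.467). The summed signal of the list was 25935 to 29396 in controls 1 to 4 and 27955 to 36119.8 in controls 5 to 8.

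All 5 measured thymus and T cell genes were lower in controls 1 to 4, but other defining markers of T cells lay near background. The T cell receptor chains Cd3e and Cd3g gave 16.6 to 33.5 and 5.4 to 21.1 over the 8 controls, Cd8a 11.4 to 58.8 and Ptcra 14.3 to 39.6, and all lay below the filter. Cd4 gave 78.9, 131, 149.6 and 51.5 against 265, 182, 174 and 191, without overlap and without passing (−0.85 ± 0.27; adjusted p = 0.127). Rag1 gave 116 to 218 against 214 to 389 (−0.72; adjusted p = 0.405). The summed signal of the 5 genes was 639 to 820.4 in controls 1 to 4 and 840.0 to 1124 in controls 5 to 8, and the median shrank to −0.35 with a pseudocount of 100.

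Lung genes varied widely between arrays of the same set. Sftpc, the surfactant protein of alveolar type II cells, gave 131, 138, 787 and 572 in controls 1 to 4 and 953, 2333, 128 and 1854 in controls 5 to 8. Controls 1, 2 and 7 were low, and control 6 was the highest (−1.42 ± 0.95; adjusted p = 0.52; 0.075 without the 4 arrays of highest β-actin ratio). Sftpb gave 39.5 to 66.1 against 55.2 to 375, and Scgb1a1, the club cell secretoglobin, 18.8 to 231 against 69.7 to 301. Of 7 measured lung genes 2 were higher and 5 lower (median −0.13; 0.33 without controls 1 and 2), with a summed signal of 862 to 2567 in controls 1 to 4 and 1326 to 3731 in controls 5 to 8. The lung score was lowest in controls 1 and 2, at −0.91 and −1.11.

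Sex-linked genes also varied by array. Xist, the RNA of the inactive X chromosome, gave 4.4, 34.1, 1601 and 1343 in controls 1 to 4 and 889, 258, 27 and 932 in controls 5 to 8, and the Y-linked Eif2s3y gave 638, 746, 269 and 260.4 and 179.6, 377, 682 and 336. Controls 1, 2 and 7 combined little Xist with the highest Eif2s3y signals, so that arrays of this kind were 2 of 4 in the first set and 1 of 4 in the second. The other 5 arrays gave at least 258 for Xist and 179.6 for Eif2s3y. Neither gene passed (adjusted p = 0.926 and 0.832), and with Xist as a covariate 136 probe sets were called, 121 of them among the 127.

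Within the heart, endothelial genes were higher in 11 of 15 (median 0.081; 0.15 without control 3 and 0.0092 without the 4 arrays of highest β-actin ratio; 3 without overlap). Over all 6099 genes 8.3% did not overlap. Vwf, von Willebrand factor, gave 1091, 1136, 1115 and 1163 in controls 1 to 4 and 882, 829.8, 801 and 837 in controls 5 to 8, a small but even step (0.41 ± 0.09; adjusted p = 0.0249). That call was lost without controls 1, 2, 5, 7 or 8 (0.0565 to 0.0924). Eng, endoglin, was at 0.29 without overlap and Kdr, the receptor of vascular endothelial growth factor, at 0.41, and neither passed. Nr2f2, a nuclear receptor of atrial identity and veins, gave 202 to 335 against 383 to 594 (−0.63 ± 0.16; adjusted p = 0.042), and lost its call in 13 of 20 fits that each left out 1 array, among them those without controls 1, 2, 5, 6, 7 or 8 (0.05 to 0.161). Gja5, the atrial and conduction connexin, was at −0.52 without overlap (adjusted p = 0.0925). Myh11 of smooth muscle was at 0.96 (adjusted p = 0.147), with controls 3 and 4 the highest of its signals, 216, 208, 365 and 556 against 110.4, 201, 96.3 and 193.

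**Figure D4:**
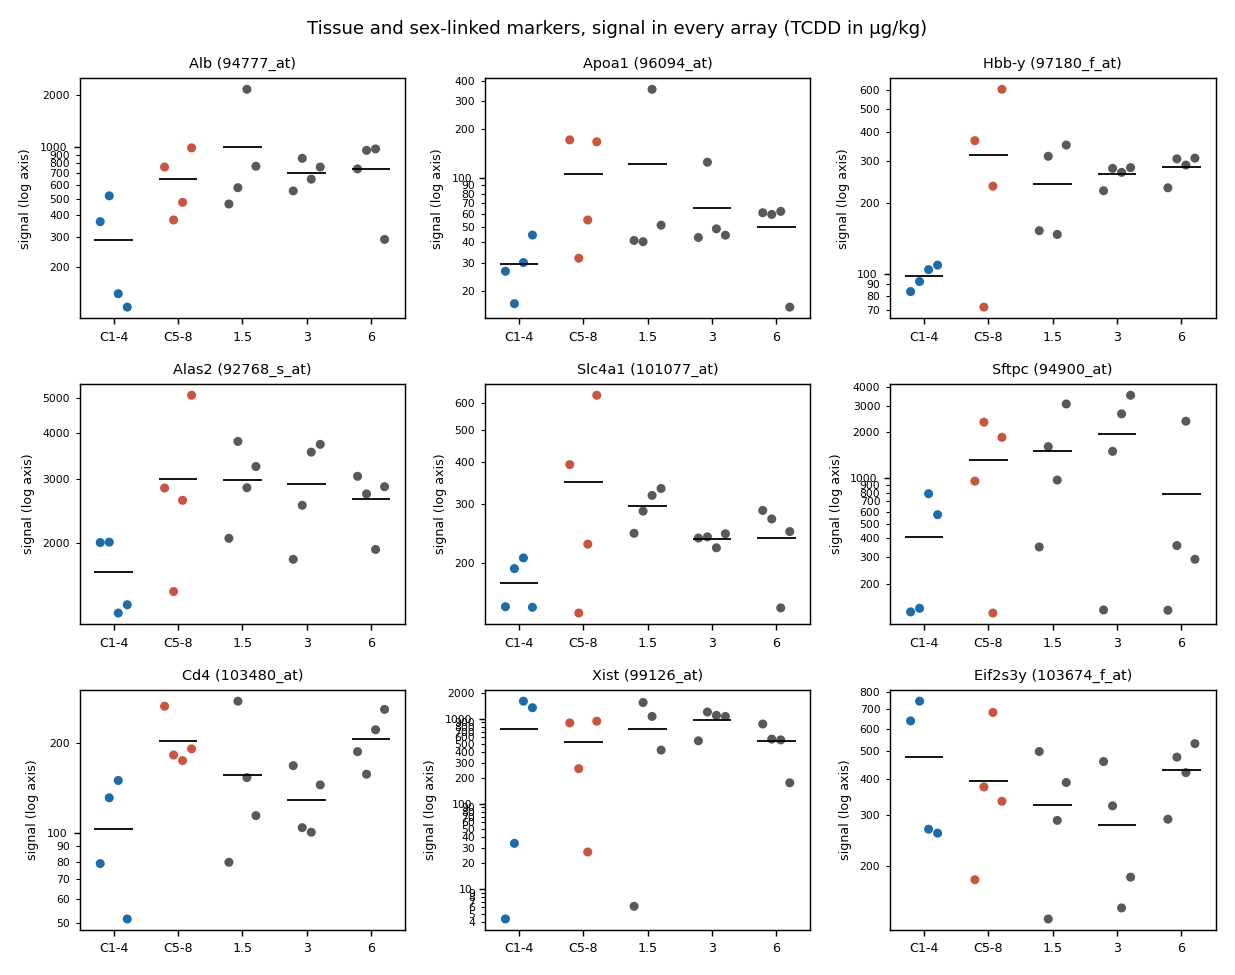
Signal of liver (Alb, Apoa1), red cell (Hbb-y, Alas2, Slc4a1), lung (Sftpc), T cell (Cd4) and sex-linked (Xist, Eif2s3y) genes in every array on a log axis, with 1 point per array and a bar at each group mean. Controls 1 to 4 and 5 to 8 overlap in all panels but Cd4, and none of the 9 genes passed between them.

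None of the listed genes of the contractile apparatus, oxidative phosphorylation, fatty acid oxidation or glycolysis passed. Among genes outside these lists, Nrap, a myofibril anchoring protein, and Pygm, muscle glycogen phosphorylase, were called, at 0.51 and 0.53 (adjusted p = 0.0162 and 0.0446), and Pygm passed in 7 of 20 fits that each left out 1 array. Myh6 and Myh7, the α and β myosin heavy chains, were at −0.012 and 0.03 with standard errors of 0.10 and 0.10, and Myh6 changed sign between alternatives. This Myh7 probe set read 25490 to 30160 over the 8 controls, near the top of the signal range. A dimmer Myh7 probe set gave 711, 569, 506 and 391 in controls 1 to 4 and 431, 272.5, 518 and 298 in controls 5 to 8. It overlapped between the sets and did not pass. Of 23 contractile genes 11 were higher and 12 lower (median −0.0036), and of 48 genes of oxidative phosphorylation and the TCA cycle 24 were higher and 24 lower (median −0.0028). Each of these medians kept its sign in 28 of 38 alternatives. Fatty acid oxidation stood at a median of −0.03 over 24 genes and glycolysis at 0.069 over 18. Nppa and Nppb, the natriuretic peptides that mark wall stress, were at 0.19 and 0.16 (adjusted p = 0.384 and 0.651). The AhR targets Cyp1a1 and Cyp1b1, the enzymes that TCDD induces, were near background in both sets, at 15.4 to 70.6 and 21.1 to 60.6 for the dimmer of the 2 kept Cyp1a1 probe sets and 45.9 to 86.8 and 72.1 to 112 for Cyp1b1.

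Some processes leaned one way over many genes with small differences. DNA replication genes were higher in 27 of 34 (median 0.15, from 0.11 to 0.22 over 38 alternatives), 7 did not overlap, and Mcm3 alone passed. Examples that did not pass were Cdc6, which loads the helicase (0.34; adjusted p = 0.119), Pold1, the catalytic subunit of polymerase δ (0.39; 0.0874) and Rfc1, of the clamp loader (0.43; 0.157). Mitotic genes did not share this, with 18 of 33 higher and a median of 0.024. Chromatin regulators were divided, with 16 of 27 higher and 11 lower. Their median was 0.15, but 0.061 when a gene's probe sets were averaged and 0.035 with array weights. Of the 27, 9 (33.3%) did not overlap, where 8.3% of all 6099 genes did not. Bmi1 alone of the list passed, which does not include Smarcd2 and Chd8. The maintenance methyltransferase Dnmt1 (0.41; adjusted p = 0.103) and the remodeller Chd4 (0.46; 0.18) were higher, and Ezh2, the methyltransferase of Polycomb complex 2, was lower (−0.39; 0.091), none of them past the threshold. With array weights, where 762 probe sets were called, Cdc6, Pold1, Rfc1, Dnmt1, Chd4 and Ezh2 did pass (adjusted p = 0.0382, 0.0307, 0.0181, 0.0158, 0.0294 and 0.0149). Pold1 also passed without control 3 (0.0444) and Chd4 without the 4 arrays of highest β-actin ratio (0.0311).

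Cholesterol synthesis genes were higher in 13 of 16 (median 0.14; Mvd 0.55, Dhcr7 0.49), hypoxia genes in 13 of 16 (median 0.13; Ndrg1 0.36) and clock genes in 9 of 13 (median 0.18; Bhlhe40 0.37, Per3 −0.35). Immediate early genes, which respond within minutes to handling and stress, were lower in 17 of 22 (median −0.069), with Egr1 at −0.41, Dusp1 at −0.35 and Fos at −0.017. None of the genes in these 4 lists passed. Each of the 4 medians kept its sign in all 38 alternatives, but with wide ranges. Cholesterol synthesis ran from 0.069 without control 7 to 0.32 without control 6, and hypoxia fell to 0.062 without control 2. The clock median was 0.087 without the 4 arrays of highest β-actin ratio, and the immediate early median was −0.17 there. The chaperone list had 11 of 26 higher (median −0.03), and Cct8, a subunit of the cytosolic chaperonin, was its 1 gene that passed (0.45 ± 0.10; adjusted p = 0.0273), a call lost without controls 1, 2, 5, 7 or 8 (0.0588 to 0.126). Its partner Cct3 was at 0.44 and did not pass (adjusted p = 0.125; 0.00415 with array weights). The median of AhR target genes was −0.021 over 9, of glucocorticoid response genes −0.084 over 15 and of TGF-β signalling genes 0.065 over 30. None of the genes in these 3 lists passed. The tissue lists not yet named ran from −0.18 for brown fat to 0.10 for macrophages and leukocytes. Over all 48 lists, 18 of 762 measured genes passed, 9 in each direction (2.36%), beside 1.52% of all 6099 genes, and 35 lists held none.

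**Figure D5:**
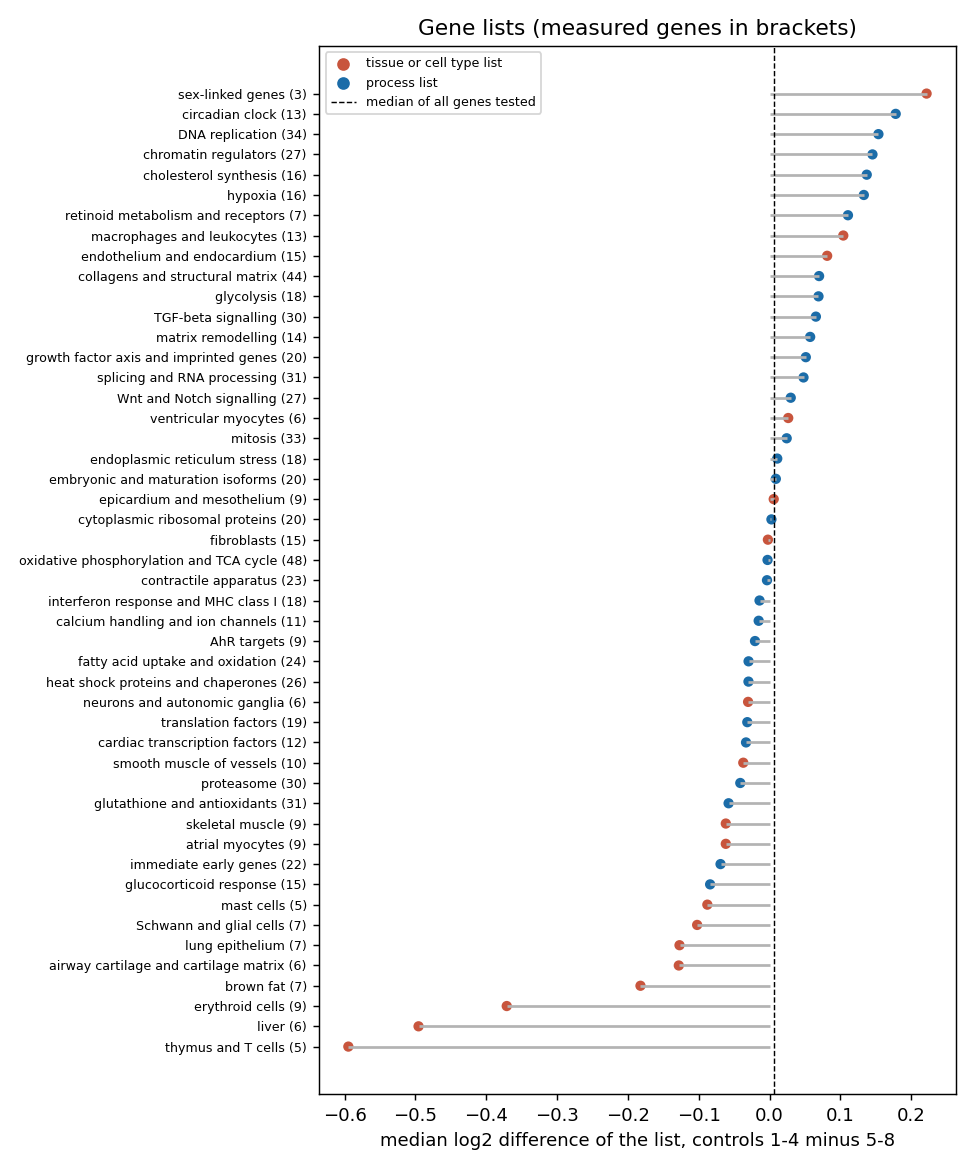
Median log2 difference of each gene list, controls 1 to 4 minus controls 5 to 8, with the number of measured genes in brackets, tissue or cell type lists in red and process lists in blue, and the median of all genes as a dashed line. The medians run from −0.59 for thymus and T cells to 0.22 for the 3 sex-linked genes, and 4 of 48 are larger than 0.2 in size.

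Array quality is given as values, since a single measure could not pass after adjustment over 6 at the smallest p that 70 splits allow. The median signal was 171 to 201 over the 8 controls, and the share of probe sets under a signal of 100 was 36.1% to 39.7%. Correlations between arrays were taken over the 8097 kept probe sets, which are not independent replicates. They were 0.957 to 0.978 within controls 1 to 4 (median 0.96) and 0.963 to 0.978 within controls 5 to 8 (median 0.971). Between the sets they were 0.953 to 0.968 (median 0.961). By median, controls 1 to 4 were no closer to each other than to controls 5 to 8. Probe sets of list genes below the filter, 155 in all, were compared by two-sided exact permutation over the 70 splits of the 8 arrays, where the smallest p is 0.0286. It was reached by 8 (5.16%), and the smallest adjusted p was 0.554.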

How the data were processed

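Fetal heart RNA was hybridised to 20 one-colour arrays, and the authors deposited MAS5 signal intensity per probe set, a linear value already scaled per array (2% trimmed mean 500.28 to 500.341). The MAS5 version and the scanner settings are not given in the sources used here. Each array was rescaled to a trimmed mean of 500, and log2(signal + 32) was taken. AFFX control probe sets were left out, and 8097 of 12422 probe sets were kept, those reaching the array's 40th percentile of signal in 4 or more arrays. One limma 3.58.1 fit (R 4.3.3, eBayes with an intensity trend, 15 residual degrees of freedom) over 5 groups of 4 arrays gave the contrast, with Benjamini-Hochberg adjustment over all 8097 and a threshold of 0.05. Exact permutation over the 70 splits served for probe sets below the filter and for quality measures. Gene symbols are those of the platform annotation, and promoter windows are from RefSeq (GRCm38.p6).

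The named genes are the 20 largest differences in each direction among called probe sets with 1 symbol and no overlap between the sets, up to 4 genes of each list by smallest p, and a short list of tissue and heart genes. The arrays compared and the gene lists were chosen with earlier results of these data known. On simulated data with 200 of 8097 probe sets changed, the fit recovered 86% of 2-fold and 52% of 1.5-fold changes, with 7 false calls. On the 8 controls alone it recovered 75% of 2-fold changes. The simulated noise was drawn independently for each probe set and array, so these rates need not hold where probe sets vary together. Alternatives covered scaling, pseudocount, filter, trend, weights, covariates and single arrays left out.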

Additional observations from a re-analysis of the deposited data

Results flagged for a closer look

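In 17 of 260 groups of 4 values (6.54%), 1 array stood apart from the other 3 by Dixon's criterion, where chance alone gives about 1 in 20. Control 6 held 6 of the single-gene values. It was high in Fancc (signal 256, the others 112 to 126), Prcc (290, the others 155 to 163), B2m (3840, the others 2380 to 2570), Snrpd3 (996, the others 637 to 660) and Cct3 (2290, the others 1760 to 1830), and low in the adult globin Hba-a1 (25400, the others 28100 to 28600). Its score for thymus and T cell genes was −0.0559, below 0.27 to 0.32 in the others.

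Control 1 was low in Pdia3 (299, the others 346 to 349) and high in Dnmt1 (2030, the others 1490 to 1570) and Hspa5 (4930, the others 4040 to 4180). Control 4 was high in Nppa (6310, the others 5900 to 5940), Myh7 (30200, the others 25600 to 26100) and Pptc7 (1060, the others 856 to 884), and its liver score was −0.63, below −0.39 to −0.35. Control 5 was high in Myh7 (28300, the others 25500 to 25900) and control 8 in Glg1 (1130, the others 867 to 881). Control 2 had a mast cell score of −0.12, below 0.24 to 0.26 in the others.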

How the results depend on the processing

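The count of 127 probe sets (68 higher, 59 lower in controls 1 to 4) was 128 after quantile normalization, 127 on the signals as deposited, 120 and 128 with pseudocounts of 1 and 100, 143 with a filter at the 60th percentile, 126 with a filter on the mean, and 136 with Xist as a covariate, which gives no value for Xist itself. It was 80 with no filter (38 higher), 87 with no intensity trend (43 higher), 762 with array weights (378 higher, 384 lower), 53 with the β-actin ratio as a covariate (28 higher, 25 lower), 79 with the lung score as a covariate (38 higher), 106 without the 4 arrays of highest β-actin ratio (40 shared), 23 on the 8 controls alone (8 higher, 15 lower) and 27 without controls 1 and 2 (9 higher, 18 lower). With a minimum change of 1.5-fold it was 1 (0 higher, 1 lower). Leaving out 1 of the 20 arrays gave 25 to 178 probe sets, 7 to 89 higher and 18 to 89 lower. No paired analysis was possible because controls 1 to 4 share no replicate number with controls 5 to 8.

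Some genes that did not pass changed sign, and none of them is used as a difference. With quantile normalization, Fos was at 0.00856. With a pseudocount of 1, the dimmer Cyp1a1 probe set was at −0.0204. With array weights, Myh7 was at −0.00356, Afp at −0.0284, the brighter Cyp1a1 probe set at −0.14 and Myh6 at 0.00622. With the β-actin ratio as a covariate, Eif2s3y was at −0.0791, Xist at 0.88, Acta1 at 0.14, the dimmer Cyp1a1 probe set at −0.0714, Fos at 0.0448, Myh6 at 0.0108 and Uty at −0.0423. With the lung score as a covariate, Scgb1a1 was at 0.23, Xist at 0.27, the brighter Cyp1a1 probe set at −0.00918, Myh6 at 0.0191, Hspa5 at −0.0239 and Uty at −0.0059. With the 4 arrays of highest β-actin ratio left out, Sftpc was at 0.075, Scgb1a1 at 0.62, Eif2s3y at −0.36, Xist at 2.00, Acta1 at 0.17, Fos at 0.0403, Myh6 at 0.0909, Hspa5 at −0.000327, Hsp90b1 at −0.11 and Uty at −0.24. With controls 1 and 2 left out, Scgb1a1 was at 0.35, Eif2s3y at −0.39, Xist at 2.09, Acta1 at 0.24, Fos at 0.0191, Myh6 at 0.0441, Hspa5 at −0.0162, Hsp90b1 at −0.12 and Uty at −0.33. With 1 array left out, the values ran for Xist from −1.24 to 0.59, Fos from −0.10 to 0.0814, Myh6 from −0.0667 to 0.0351, Hspa5 from −0.0257 to 0.0695, Scgb1a1 from −0.71 to 0.11, Acta1 from −0.31 to 0.0108, the dimmer Cyp1a1 probe set from −0.13 to 0.24, Afp from −0.0409 to 0.25, the brighter Cyp1a1 probe set from −0.19 to 0.18, Myh7 from −0.0254 to 0.0638 and Eif2s3y from −0.0384 to 0.55. The causes of these shifts were not tested. Alternatives for controls 1 and 2 were added after the data were seen, and signals near background limit Cyp1a1, Afp and the T cell genes.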
